A study of Mus musculus with 16 samples.

Results

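The collecting duct is the last segment of the nephron, where the final sodium, water and acid content of urine is set. 10 genes of its sodium and acid-base transport were looked up by symbol among the 18132 genes of the deposited table, and all 10 were found. 6 belong to the principal cells, namely the epithelial sodium channel subunits SCNN1A, SCNN1B and SCNN1G, the vasopressin receptor AVPR2, the enzyme HSD11B2 and the kinase SGK1. The other 4 belong to the intercalated cells, namely the proton pump subunits ATP6V1B1 and ATP6V0D2 and the anion exchangers SLC4A1 and SLC26A4. Kidneys were compared after unilateral ureteral obstruction (UUO), in which 1 ureter is closed and urine backs up into the kidney behind it. RNA of 16 kidneys was hybridized to Illumina BeadChips, on which the brightness of a probe follows the amount of its transcript. 7 wildtype (WT) and 5 IL-33-deficient (KO) kidneys were harvested 24 h after UUO, and 2 WT and 2 KO kidneys were untreated controls. All mice had a C57/BL6 background, the KO mice lacked the nuclear cytokine IL-33 with no cell-specific driver named, and the labels give no age. The UUO kidneys came in 2 sets, with 3 WT and 2 KO kidneys in set 1 and 4 WT and 3 KO kidneys in set 2, whereas the set of the controls is not stated. Between UUO and control kidneys, a difference of set therefore cannot be told apart from obstruction. Each kidney is called by its label's number. The labels do not say whether each number is a separate mouse, so p-values measure the spread between these kidneys only.

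Principal cells take up sodium from the urine through the epithelial sodium channel ENaC, which is built of an alpha, a beta and a gamma subunit. Aldosterone acts on these cells through the mineralocorticoid receptor, HSD11B2 inactivates glucocorticoids that would otherwise occupy that receptor, and SGK1, an early target of it, keeps ENaC at the cell surface. Vasopressin acts on the same cells through AVPR2 and opens them to water. Intercalated cells move acid and base with a V-type proton pump. Type A cells secrete acid and return bicarbonate to the blood through the kidney form of the exchanger AE1 (SLC4A1), while type B cells secrete bicarbonate through pendrin (SLC26A4).

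As a regulatory sequence, the promoter windows of RefSeq on GRCm38.p6, from 250 bases before to 50 bases after a start of transcription, were searched for the corticosteroid receptor hexamer AGAACA and its reverse complement TGTTCT. 6 of the 10 genes had 11 windows between them, and the hexamer occurred in windows of Avpr2, Sgk1 and Slc26a4, which made 5 of the 11 windows against 19.0% of all 32851. The forkhead core TAAACA or its reverse complement TGTTTA, searched because forkhead factors act in intercalated cells, occurred in windows of Atp6v1b1 and Avpr2 and in 13.4% of all windows. The stretches of Sgk1 and Slc26a4 are shown because SGK1 is a corticosteroid target with a match and SLC26A4 the member with a match whose level fell after UUO. The hexamers stand in capitals.
Sgk1, chr10:21993640-21993719, plus strand, 250 to 171 bases before 1 of its starts: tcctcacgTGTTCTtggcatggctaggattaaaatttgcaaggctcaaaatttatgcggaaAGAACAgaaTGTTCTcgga
Slc26a4, chr12:31560056-31560234, minus strand, 250 to 72 bases before the start: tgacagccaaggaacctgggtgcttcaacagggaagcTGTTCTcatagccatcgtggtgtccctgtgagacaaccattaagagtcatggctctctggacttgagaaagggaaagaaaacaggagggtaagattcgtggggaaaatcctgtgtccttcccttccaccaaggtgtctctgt
The Sgk1 stretch holds 3 hexamers, which begin 242, 189 and 180 bases before the start, and the pair nearest the start forms the full palindrome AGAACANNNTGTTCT, found in 3 of the 32851 windows (0.00913%). The palindrome was searched after the stretch had been read, and it overlaps the hexamers it is made of. The Slc26a4 stretch holds 1 hexamer, which begins 213 bases before the start. A match describes the letters only, and binding was not measured.

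IL33 gave the check of the labels. Its level, in log2 intensity as all levels here, was 7.62 and 8.02 in the WT controls and 8.39 to 9.57 in WT kidneys after UUO, while the 7 KO kidneys lay between 6.80 and 7.02. Every KO kidney was therefore below every WT kidney. The kidney genes KAP, at 13.30 to 14.04, and UMOD, at 12.70 to 13.95, were bright on all 16 arrays. HAVCR1, a tubule injury gene, was 7.07 to 7.37 in the controls and at least 10.42 after UUO. WT kidney 3820 had the 10.42 and WT kidney 3818 had 12.84, whereas the other UUO kidneys reached 13.12 to 13.95. For 7 of the 10 members, namely all but AVPR2, ATP6V1B1 and ATP6V0D2, kidneys 3818 and 3820 both lay above the other 5 WT kidneys after UUO. The share of all genes with this order was not counted, so the 7 cannot be read as a trait of the members. The WT results of these 7 members and the list counts are given with and without kidneys 3818 and 3820, a choice made after seeing the data. As whole kidneys were measured, fewer collecting duct cells and less RNA per cell cannot be told apart.

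**Figure D1:**
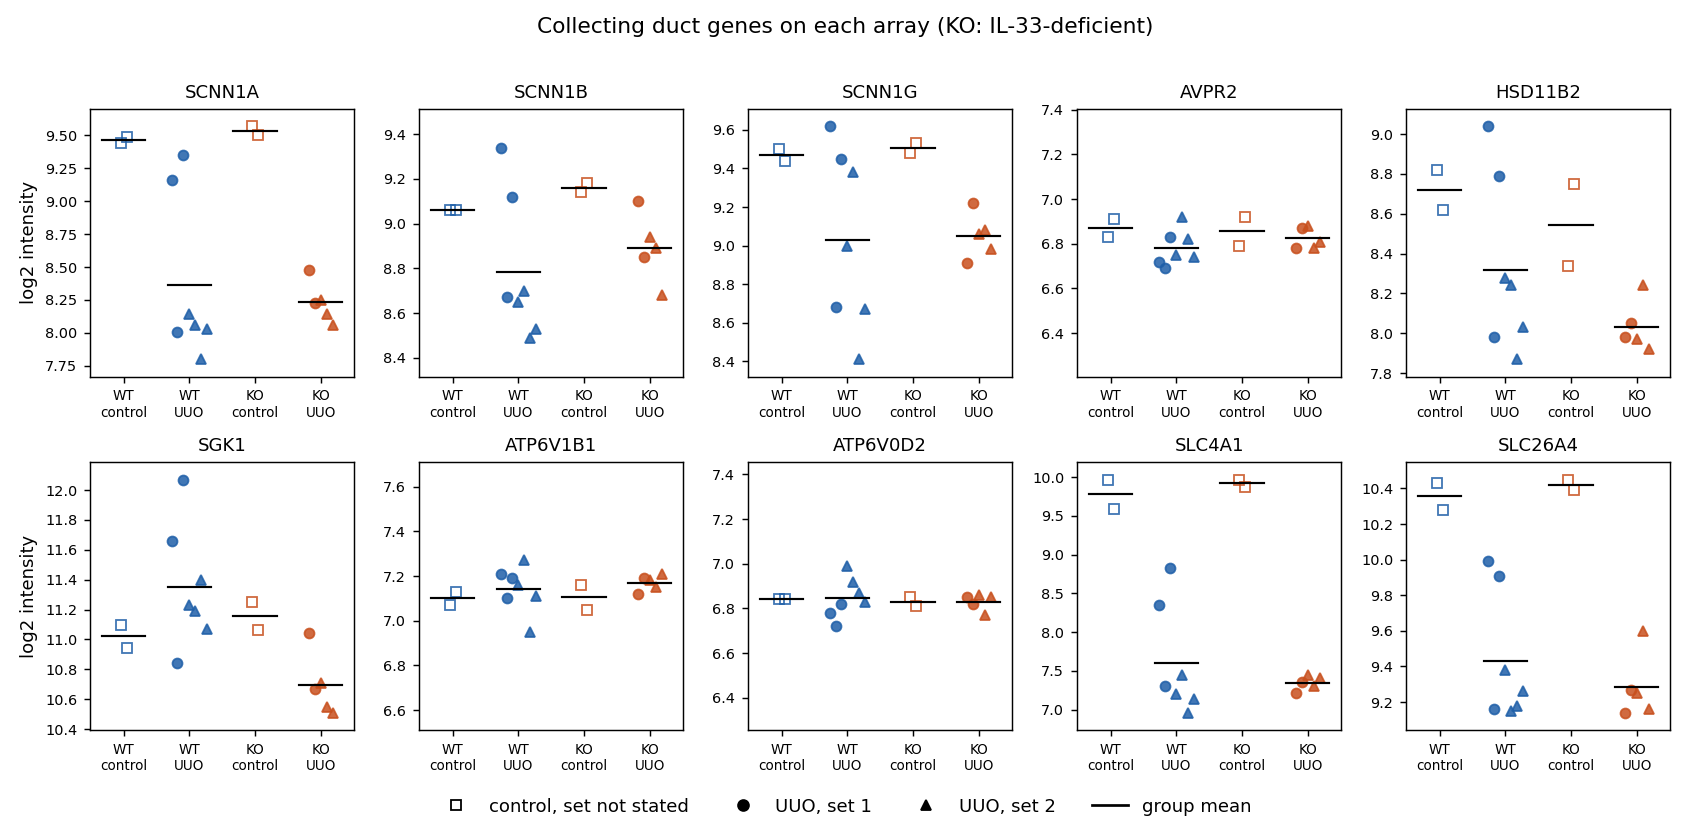
Log2 intensity of the 10 genes on each array, 1 point per kidney, by group (KO: IL-33-deficient), with group means as lines. SCNN1A, SLC4A1 and SLC26A4 lay lower in every UUO kidney than in every control of the same genotype, SGK1 stood at 10.84 to 12.07 in WT and 10.51 to 11.04 in KO kidneys after UUO, and AVPR2, ATP6V1B1 and ATP6V0D2 varied little.

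The first question was what obstruction did to these genes. In WT kidneys, SCNN1A, SLC4A1 and SLC26A4 fell after UUO, by 2.15-fold, 4.51-fold and 1.89-fold, and no member rose. The same 3 fell in KO kidneys, by 2.47-fold, 5.95-fold and 2.19-fold. At an adjusted p of 0.05 in limma, 3 of 10 members were thus lower in each genotype, where 8.22% of all genes were lower in WT and 11.2% in KO kidneys. No member was higher, against 6.97% and 10.6% of all genes. Dim genes are rarely called, and 8 members are among the 9066 genes brighter than the median. Of these 9066 genes, 1554 were lower in WT and 2011 in KO kidneys, with 3 of the 8 members in each genotype. Calls in WT depended on the kidneys included. Without kidneys 3818 and 3820, 6 members were lower in WT (11.6% of all genes), as SCNN1B, SCNN1G and HSD11B2 joined. That gain follows in part from how the 2 kidneys were picked. In set 2 alone, 6 were lower in WT (11.9% of all genes) and 6 in KO kidneys (12.4% of all genes), the latter with SCNN1B, HSD11B2 and SGK1 added. As the set of the controls is unknown, the counts of 1 set do not separate obstruction from set. With KO arrays alone 6 were lower (11.9% of all genes). With the WT kidneys of set 1 alone none was called, where the share over all genes was 0.59%. SLC4A1 alone was called in WT without control 3811 (3.27% of all genes) or without control 3812 (2.44% of all genes). Every UUO kidney lay below every control of its genotype for 3 members in WT (11.2% of all genes) and for 7 members in KO kidneys (17.5% of all genes).

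SCNN1A encodes the alpha subunit, without which the channel carries little current. It was 9.44 and 9.49 in the WT controls, and in WT kidneys after UUO it was 7.80 at the lowest, 8.06 at the median and 9.35 at the highest. The KO controls had 9.57 and 9.50, and the KO kidneys after UUO 8.48, 8.23, 8.25, 8.14 and 8.06. UUO kidneys lay below the controls without overlap in both genotypes, yet kidneys 3818, at 9.16, and 3820, at 9.35, came close to the WT controls. The difference between UUO and control was -1.10 (SE 0.33, limma adjusted p = 0.0329) in WT and -1.31 (SE 0.34, limma adjusted p = 0.0113) in KO kidneys. The WT difference was -1.46 without kidneys 3818 and 3820 (limma adjusted p = 1.06e-07), and in set 2 alone it was -1.46 (limma adjusted p = 2.63e-07). The WT call was lost in 9 of 20 alternatives, among them the fit of WT arrays alone (adjusted p = 0.121) and the omission of either WT control, of 3819 or of any 1 kidney of set 2 (adjusted p from 0.0503 to 0.209). The KO call was lost without control 3813 (adjusted p = 0.0925), without control 3814 (adjusted p = 0.0718) and with set 1 alone.

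SCNN1B, the beta subunit, was 9.06 in both WT controls and 8.49 at the lowest, 8.67 at the median and 9.34 at the highest in WT kidneys after UUO. In KO kidneys it went from 9.14 and 9.18 to 9.10, 8.85, 8.94, 8.89 and 8.68. Kidneys 3818 and 3820 were above the WT controls and the other 5 WT kidneys below them. The differences of -0.27 (SE 0.18) in WT and -0.26 (SE 0.19) in KO kidneys did not pass the test (limma adjusted p = 0.391 and 0.394). Without kidneys 3818 and 3820 the WT difference was -0.45 (limma adjusted p = 0.0013).

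SCNN1G, the gamma subunit, was 9.50 and 9.44 in the WT controls and 8.41 at the lowest, 9.0 at the median and 9.62 at the highest in WT kidneys after UUO. The KO controls had 9.48 and 9.53 and the KO kidneys after UUO 8.91, 9.22, 9.06, 9.08 and 8.98. In KO kidneys the groups did not overlap, while in WT kidneys 3818, at 9.62, and 3820, at 9.45, reached the controls. The differences were -0.44 (SE 0.24, limma adjusted p = 0.295) in WT and -0.46 (SE 0.26, limma adjusted p = 0.260) in KO kidneys. Without kidneys 3818 and 3820 the WT difference was -0.64 (limma adjusted p = 0.0175), and in the fit of KO arrays alone the KO difference had a limma adjusted p of 0.00226.

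HSD11B2, the enzyme that shields the mineralocorticoid receptor, was 8.82 and 8.62 in the WT controls and 7.87 at the lowest, 8.24 at the median and 9.04 at the highest in WT kidneys after UUO. It was 8.34 and 8.75 in the KO controls and 7.98, 8.05, 7.97, 8.24 and 7.92 in the KO kidneys after UUO. Kidneys 3818 and 3820 again lay within or above the range of the WT controls, and the KO groups did not overlap. The differences were -0.40 (SE 0.24, limma adjusted p = 0.344) and -0.51 (SE 0.25, limma adjusted p = 0.195). HSD11B2 was called lower in WT without kidneys 3818 and 3820 (-0.64, limma adjusted p = 0.0016), in set 2 of either genotype and in the fit of KO arrays alone (limma adjusted p = 0.0123).

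AVPR2 was dim. Its 16 values ran from 6.69 to 6.92, all below 7.05, the median of the whole table, and the lowest value of any gene was 6.59. The groups overlapped in both genotypes, with differences of -0.09 (95% interval -0.21 to 0.04) in WT and -0.03 (-0.16 to 0.10) in KO kidneys. No detection p-values were used here, so a level this close to the bottom of the scale cannot be told from background, and small differences there say little about the transcript.

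SGK1 was one of the brightly measured members. It was 11.10 and 10.94 in the WT controls and 10.84 at the lowest, 11.23 at the median and 12.07 at the highest in WT kidneys after UUO. It was 11.25 and 11.06 in the KO controls and 11.04, 10.67, 10.71, 10.55 and 10.51 in the KO kidneys after UUO. The WT UUO kidneys lay on both sides of their controls, with 3820 and 3818 the highest, while every KO UUO kidney was below its controls. The difference between UUO and control was 0.33 (SE 0.23, limma adjusted p = 0.433) in WT and -0.46 (SE 0.24, limma adjusted p = 0.223) in KO kidneys, neither of which passed the test. The WT difference was 0.13 without kidneys 3818 and 3820 (limma adjusted p = 0.655). In KO kidneys SGK1 was called lower in set 2 alone (-0.56, limma adjusted p = 0.000897) and in the fit of KO arrays alone (limma adjusted p = 0.0351). SGK1 is expressed in many cell types besides principal cells, so a whole-kidney level is not specific to the collecting duct.

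Among the intercalated cell genes, SLC4A1 had the largest difference of the 10 members. It was 9.97 and 9.59 in the WT controls and 6.96 at the lowest, 7.31 at the median and 8.83 at the highest in WT kidneys after UUO. The KO controls had 9.97 and 9.87 and the KO kidneys after UUO 7.22, 7.35, 7.45, 7.30 and 7.41. UUO kidneys and controls were far apart in both genotypes, and kidneys 3818, at 8.35, and 3820, at 8.83, stood between the controls and the other WT kidneys. The difference was -2.17 (SE 0.37, limma adjusted p = 0.00141) in WT and -2.57 (SE 0.38, limma adjusted p = 0.000237) in KO kidneys. It was called in 19 of 20 alternatives in WT, the exception being set 1 alone (-1.62, limma adjusted p = 0.101), and in 17 of 17 in KO kidneys. Most values after UUO lay near the table's median of 7.05, where background compresses differences. With the lowest intensity of the table subtracted first, the differences were -2.94 and -3.42.

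SLC4A1 is also the band 3 protein of red cells, and the table does not separate its kidney form from the red cell form. Of 16 red cell genes matched, none passed the test in either genotype with all kidneys, and the median difference was -0.03 in WT and -0.06 in KO kidneys. Over all genes 8.22% were lower in WT and 11.2% in KO kidneys, and 11.6% in WT without kidneys 3818 and 3820. The alpha globin gene HBA-A1 differed by -1.03 (SE 0.53, limma adjusted p = 0.242) in WT and -1.49 (SE 0.55, limma adjusted p = 0.0695) in KO kidneys, and the heme synthesis gene ALAS2 by -0.66 (SE 0.44, limma adjusted p = 0.406) and -1.30 (SE 0.46, limma adjusted p = 0.0571). With kidneys 3818 and 3820 left out, 4 of the 16 were lower in WT, namely HBA-A1 (-1.42, limma adjusted p = 0.0243), the beta globin gene HBB-B1 (-1.22, limma adjusted p = 0.0445), ALAS2 (-1.06, limma adjusted p = 0.00336) and KLF1 (-0.17, limma adjusted p = 0.0068). SLC4A1 itself was at a difference of -2.57 in that comparison (limma adjusted p = 4.27e-09). The log2 of the summed intensities of the red cell list was 13.86 to 14.40 in WT controls, 12.50 to 14.49 in WT kidneys after UUO, 14.35 to 14.38 in KO controls and 12.65 to 13.90 in KO kidneys after UUO. In WT kidney 3818 HBA-A1 was 14.16 and ALAS2 9.26, at or above the controls, while SLC4A1 was 8.35, below them. In KO kidney 3897 HBA-A1 was 13.58 and SLC4A1 7.45. In WT kidney 3820 SLC4A1 was 8.83, the highest after UUO but below the WT controls, at 9.97 and 9.59. HBA-A1 was 13.34 in that kidney, also below the WT controls, at 14.15 and 13.50, and above the WT median after UUO of 12.83. These kidneys are examples picked with their values seen. The part of red cells in the SLC4A1 difference was not tested.

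SLC26A4 was 10.43 and 10.28 in the WT controls and 9.15 at the lowest, 9.26 at the median and 9.99 at the highest in WT kidneys after UUO. It was 10.45 and 10.39 in the KO controls and 9.14, 9.27, 9.25, 9.60 and 9.16 in the KO kidneys after UUO. No UUO kidney reached a control of its genotype, and 3818, at 9.99, and 3820, at 9.91, were the nearest to them. The difference was -0.92 (SE 0.20, limma adjusted p = 0.00743) in WT and -1.13 (SE 0.21, limma adjusted p = 0.00132) in KO kidneys. The WT difference was -1.12 without kidneys 3818 and 3820 (limma adjusted p = 1.93e-06). In KO kidneys it was called in 17 of 17 alternatives. In WT kidneys it was called in 17 of 20, and not without control 3811 (adjusted p = 0.101), without control 3812 (adjusted p = 0.0633) or with set 1 alone (adjusted p = 0.203). Both exchangers were lower after UUO, and the cells that carried the SLC4A1 signal were not told apart.

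ATP6V1B1, the B subunit of the pump in intercalated cells, and ATP6V0D2, its d subunit there, were dim. ATP6V1B1 ranged from 6.95 to 7.27 over the 16 kidneys and ATP6V0D2 from 6.72 to 6.99, with overlapping groups. The UUO difference of ATP6V1B1 was 0.04 (95% interval -0.09 to 0.18) in WT and 0.07 (-0.07 to 0.21) in KO kidneys, and that of ATP6V0D2 was 0.00 (-0.11 to 0.12) and -0.00 (-0.12 to 0.12). ATP6V0D2 is also a gene of macrophages and osteoclasts, and of 23 genes of those and other leukocytes 3 rose and 2 fell in WT kidneys and 6 rose and 1 fell in KO kidneys. Over all genes, 6.97% rose and 8.22% fell in WT kidneys, and 10.6% rose and 11.2% fell in KO kidneys. With kidneys 3818 and 3820 left out, 4 rose and 2 fell in WT, where 2009 of 18132 genes rose and 11.6% fell. The monocyte gene CD14 (2.63 in WT and 2.89 in KO kidneys), the neutrophil and monocyte gene S100A8 (1.54 and 2.58) and the macrophage gene CD68 (0.62 and 0.96) rose. CSF1R, the growth factor receptor of macrophages, fell in both genotypes (-0.41 and -0.36), and the osteoclast protease CTSK fell in WT (-0.36) and differed by 0.09 in KO kidneys. Their part in the ATP6V0D2 level was not tested.

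**Figure D2:**
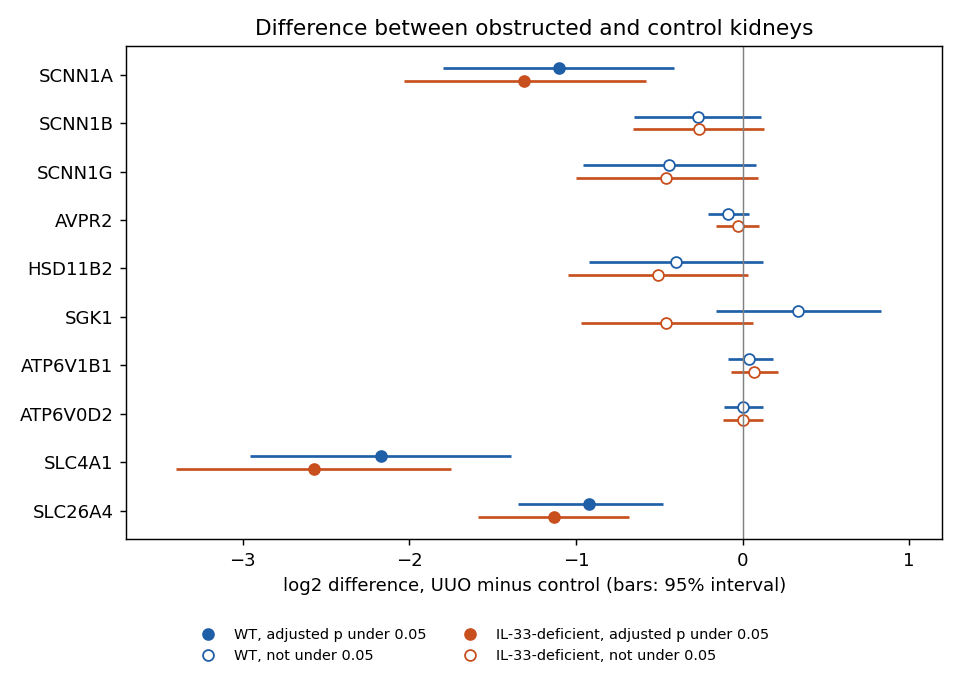
Log2 difference between UUO and control kidneys for each gene in WT and IL-33-deficient mice, with 95% intervals from limma, filled where the adjusted p over all genes was under 0.05. SLC4A1 lay at -2.17 and -2.57, SCNN1A and SLC26A4 between -0.92 and -1.31, and the interval of the other 7 genes included 0 in both genotypes.

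The next question was whether IL-33 deficiency changed these genes. In the controls, KO and WT kidneys differed by -0.18 (HSD11B2) to 0.14 (SLC4A1 and SGK1), and none of the 10 members passed the test, neither at a limma adjusted p of 0.05 (0% of all genes) nor at an unadjusted p of 0.05 (3.66% of all genes). These are 2 arrays against 2, and the 95% interval of SLC4A1 ran from -0.84 to 1.12. After UUO, none of the 10 members met the threshold of the study, which asks for an unadjusted p below 0.05, a Benjamini-Hochberg p below 0.25 and more than a 1.3-fold change, and which 0.011% of all genes met. The study applied it to fewer WT kidneys than the 7 used here. How many genes meet it depends on the kidneys, as without kidney 3819 221 were lower and 88 higher.

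SGK1 was the only member with an unadjusted p under 0.05 between KO and WT kidneys after UUO, 1 of 10 where 10.3% of all genes had one. It was lower in KO kidneys by 0.66 (SE 0.18, 95% interval -1.05 to -0.26), a fold change of 1.58, with a limma p of 0.00318 and an adjusted p of 0.311. The exact two-sided permutation test over 792 splits gave p = 0.00884. 4 of the 5 KO kidneys, between 10.51 and 10.71, lay below all 7 WT kidneys, and KO kidney 3821, at 11.04, lay above WT kidney 3819, at 10.84. In set 2 the genotypes did not overlap, with WT kidneys from 11.07 to 11.40 and KO kidneys from 10.51 to 10.71, a difference of -0.63 (exact permutation p = 0.0286, the smallest that 3 against 4 allows). In set 1 the difference was -0.67 (exact permutation p = 0.3, where the smallest possible is 0.1). Without kidneys 3818 and 3820 it was -0.45. The adjusted p over the alternatives ran from 0.0434 to 0.737, and SGK1 was called in 7 of 25 of them. In those 7, from 32 to 867 genes were called lower, against 1 in the main fit.

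The response to UUO itself differed between the genotypes by -0.79 for SGK1 (SE 0.33, 95% interval -1.50 to -0.08, limma adjusted p = 0.973). It was the only member with an unadjusted p under 0.05 in that test, 1 of 10 against 4.74% of all genes, and no member and no other gene passed an adjusted p of 0.05 (0% of all genes). For the members that fell, the differences between the responses were -0.20 (95% interval -1.21 to 0.80) for SCNN1A, -0.40 (-1.54 to 0.74) for SLC4A1 and -0.22 (-0.85 to 0.42) for SLC26A4. In set 1 alone these were -0.56, -1.02 and -0.55, and in set 2 alone 0.07, 0.06 and 0.03. Without kidneys 3818 and 3820 they were 0.15, -0.01 and -0.01, and that of SGK1 was -0.59. The intervals leave room for a difference in either direction, so the responses of the genotypes could not be told apart at this number of arrays.

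**Figure D3:**
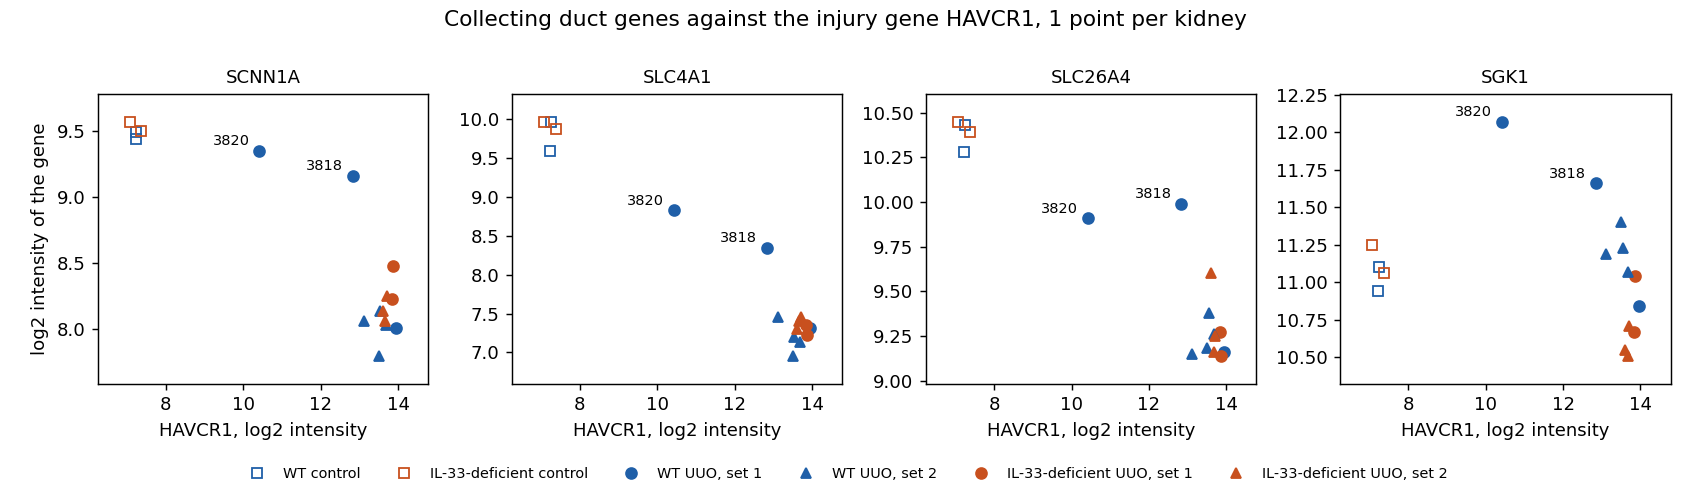
Log2 intensity of SCNN1A, SLC4A1, SLC26A4 and SGK1 against that of the injury gene HAVCR1, 1 point per kidney, by genotype, treatment and set. WT kidneys 3820 and 3818, with HAVCR1 at 10.42 and 12.84, held the highest values after UUO for all 4 genes, and the other UUO kidneys lay together at HAVCR1 of 13.12 and above.

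Of 25 measured genes that regulate ENaC or respond to aldosterone, 10 were lower and 2 higher in WT kidneys after UUO, 12 were lower and 2 higher in KO kidneys, and 11 were called in both. With kidneys 3818 and 3820 left out, 12 were lower and 3 higher in WT. Beside this list and the following ones, 8.22% of all genes were lower and 6.97% higher in WT kidneys. In KO kidneys the shares were 11.2% and 10.6%. Without kidneys 3818 and 3820, 11.6% of all genes were lower in WT and 2009 of 18132 higher. The deubiquitinase USP2 was lower (-1.33 in WT and -1.35 in KO kidneys), as were SGK2, a relative of SGK1 (-1.19 and -1.79), and the corticosteroid target TSC22D3, also called GILZ (-0.91 and -0.83). The calpain protease subunit CAPN2 was higher (0.81 and 1.09). These 4 genes passed the test in both genotypes. NEDD4L, the ubiquitin ligase that removes ENaC from the membrane, differed by 0.27 (limma adjusted p = 0.366) and 0.32 (limma adjusted p = 0.245). Beside TSC22D3 and USP2, which were lower in WT kidneys, SGK1 had its difference of 0.33 that did not pass. FKBP5 and PER1 of the same list did not pass in WT either, at -0.07 (limma adjusted p = 0.919) and -0.09 (limma adjusted p = 0.823).

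Of 21 principal cell genes for water and urea transport and cell identity, 8 were lower and 3 higher in WT kidneys after UUO and 10 lower and 2 higher in KO kidneys, with 10 called in both. The water channels AQP3 (-1.35 in WT and -1.79 in KO kidneys), AQP2 (-1.08 and -1.42) and AQP4 (-1.02 and -1.14) were lower in both. The keratin KRT18 was higher in both, at 7.59 to 7.70 in WT controls and 8.25 to 9.24 in WT kidneys after UUO, and at 7.74 to 7.86 and 8.86 to 9.30 in the KO groups. AQP2, the channel that vasopressin inserts into the membrane, was 9.18 to 9.49 in WT controls and 7.68 to 9.09 in WT kidneys after UUO, and 9.14 to 9.60 and 7.82 to 8.23 in the KO groups. It thus lay above the median of the table in every kidney. When kidneys 3818 and 3820 were left out, 9 genes of the list were lower and 3 higher in WT.

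Of 29 further intercalated cell genes, 10 were lower in WT and 11 in KO kidneys after UUO, 10 of them in both, and none was higher. Leaving out kidneys 3818 and 3820 made it 11 in WT. BSND, which encodes barttin, was lower (-1.86 in WT and -1.82 in KO kidneys), as were the carbonic anhydrases CAR12 (-1.40 and -1.92) and CAR4 (-1.37 and -2.35). The ammonia channel RHCG was also lower (-1.03 and -0.78). BSND and CAR4 are expressed in other nephron segments as well. FOXI1, the transcription factor of intercalated cells, was dim at 6.96 to 7.17 and differed by -0.00 in WT and -0.10 in KO kidneys (limma adjusted p = 0.994 and 0.219). The exchanger SLC4A9 of type B cells differed by -0.14 and 0.05, and the pump subunit ATP6V0A4, dim at 6.67 to 6.95, by -0.00 and -0.01, none of which passed the test.

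Of 16 proton pump subunits that cells use generally, 2 were lower and 3 higher in WT kidneys and 2 lower and 4 higher in KO kidneys, 4 of them called in both. Leaving out kidneys 3818 and 3820, 4 were lower and 5 higher in WT. ATP6V1A was lower (-0.69 in WT and -0.84 in KO kidneys), whereas ATP6V1C1 (0.53 and 0.92) and ATP6V1G1 (0.47 and 0.70) were higher. ATP6V0E2 was lower in WT (-0.40, limma adjusted p = 0.0214) and differed by -0.11 in KO kidneys. The paralogs of the dim members were bright and close to 0, with 0.03 and 0.02 for ATP6V1B2, the counterpart of ATP6V1B1, and -0.00 and 0.19 for ATP6V0D1, the counterpart of ATP6V0D2. Over all 4 lists, no gene was called between KO and WT kidneys, in the controls, after UUO or in the difference of the responses. The shares of all genes called there were 0%, 0.011% and 0%, so the absence of calls is not particular to these lists.

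**Figure D4:**
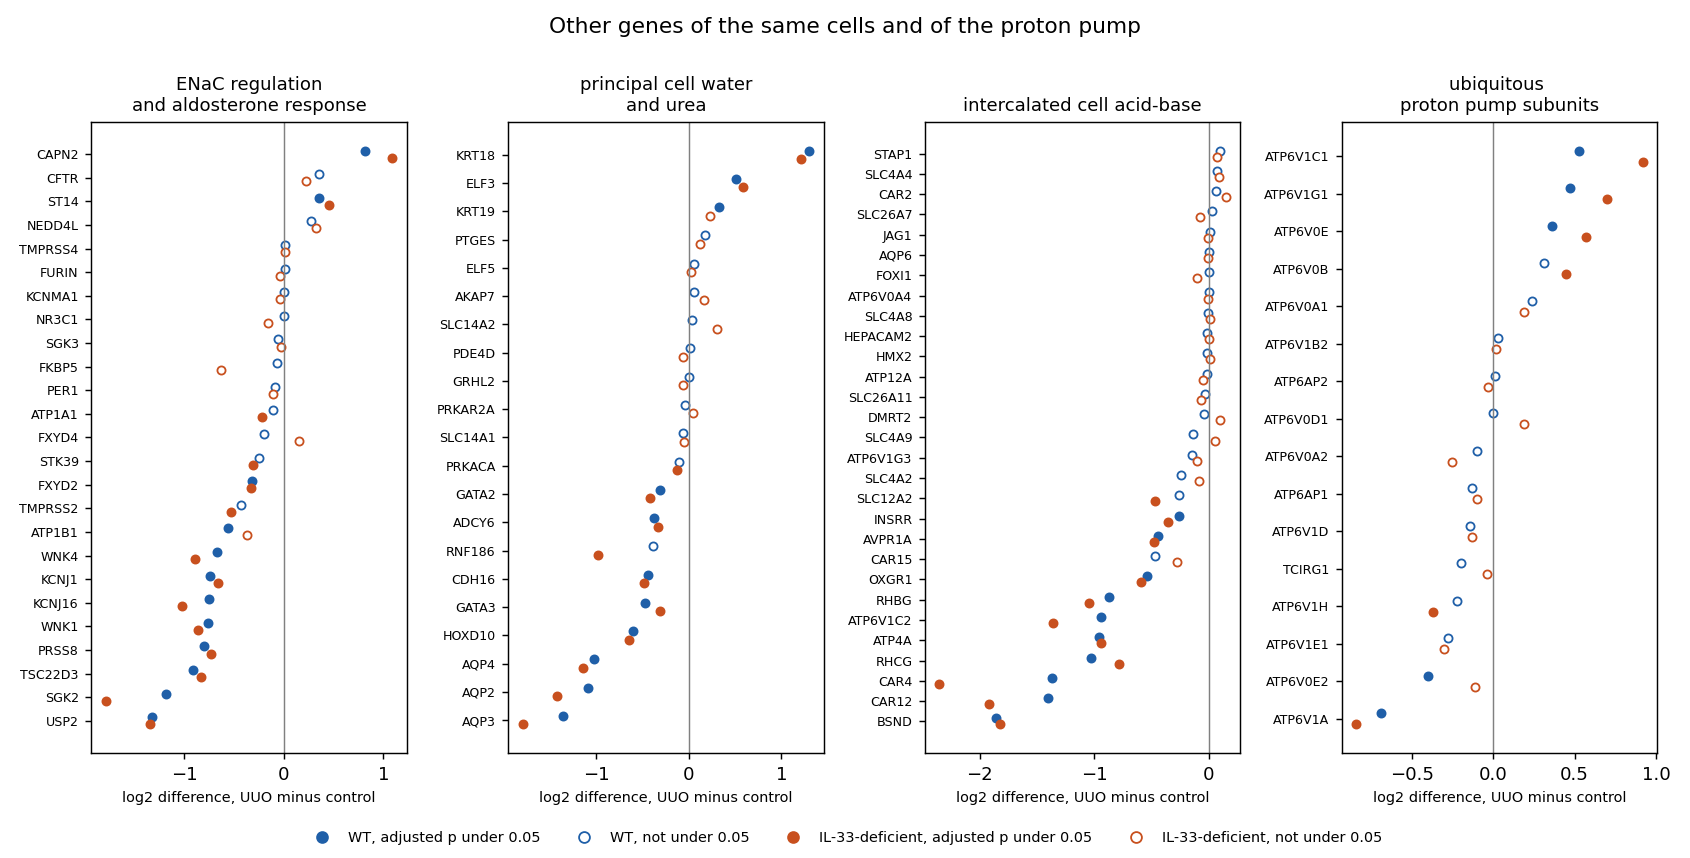
Log2 difference between UUO and control for the other genes of the same cells, 1 panel per list, in WT and IL-33-deficient kidneys, filled where the limma adjusted p was under 0.05. Among 29 intercalated cell genes no filled point lay above 0, whereas the 16 common pump subunits had filled points on both sides.

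The genes most like the members over the 16 kidneys were found by Pearson correlation with the mean centred profile of each cell type. For the principal cell members these were KCNE1 (r = 0.97), SULT1C2 (r = 0.96) and DNAJC30 (r = 0.96), and for the intercalated cell members SMARCA2, PGAM2 and TMEM25 (r = 0.99 each). All 16 kidneys enter each r, so it reflects differences between the groups as well as within them. The values were centred but not scaled, so members that varied more weigh more in a profile. SLC4A1 ranged from 6.96 to 9.97 and SLC26A4 from 9.14 to 10.45, but ATP6V1B1 only from 6.95 to 7.27 and ATP6V0D2 from 6.72 to 6.99. The intercalated cell profile thus follows mostly SLC4A1, and the part of red cells in that signal was not tested. KCNE1, SULT1C2 and DNAJC30 differed by -0.11, -0.62 and -0.27 between UUO and control in WT and by -0.14, -0.62 and -0.44 in KO kidneys. SMARCA2, PGAM2 and TMEM25 differed by -1.23, -1.71 and -1.57 between UUO and control in WT and by -1.43, -2.25 and -1.78 in KO kidneys.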

How the data were processed

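Whole-kidney RNA was labelled and hybridized to Illumina BeadChips. The authors processed the scans with BeadStudio 2, per the labels, and imported them through beadarray. The deposited values are linear intensities, 1 for each of 18132 genes, between 95.5 and 23471. Background correction, normalization and the joining of probes are not given in the sources used here. Every array's median was 132 or 133, which shows prior scaling. No detection p-values were used, and precision is limited by how many arrays there are.

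Intensities were then quantile-normalized, put on the log2 scale and tested by limma 3.58.1 (lmFit, eBayes) in R 4.3.3, and p-values were adjusted by Benjamini-Hochberg across the whole table. UUO and control, the control genotypes and the difference of the responses came from 1 model of 16 arrays, and KO and WT after UUO from the 12 UUO arrays. Exact two-sided permutation tests covered all 792 splits of 12 arrays into 5 and 7. The fit was tested on simulated data. Python 3.11.15 with numpy 2.4.6, scipy 1.17.1, pandas 2.3.3 and matplotlib 3.10.9 served for the rest. Of 218 list symbols, 197 were matched, 3 by synonym. 1 further gene of the intercalated cell list is not reported here. All 10 members, up to 4 called genes per list with the largest WT difference and preset relatives of the members were named. HBA-A1, HBB-B1, ALAS2, KLF1, CTSK, FKBP5, PER1 and HAVCR1 were chosen with their values seen. Members and lists were chosen with earlier results of these data known. Alternatives covered normalization, background, prior variance, array weights, dim genes, thresholds, sets and each kidney left out. Array numbers are unique, so no kidneys were paired.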

Additional observations from a re-analysis of the deposited data

Results flagged for a closer look

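1 of 20 groups searched, each member in the 2 UUO groups, held a kidney far from the others, in that its gap to the nearest kidney over the range of the group passed the 95% critical value of Dixon's test. SLC26A4 in KO kidney 3898 after UUO was 9.60, while the other 4 KO kidneys after UUO lay between 9.14 and 9.27. By the level of that test, chance alone gives about 1 in 20 groups.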

How the results depend on the processing

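Of 488 alternative values for 23 single-gene results, 441 kept their direction and their side of the threshold, 19 newly passed it, 16 no longer did and 12 reversed. The number of members lower in WT after UUO, 3, was 1 to 3 with 1 kidney left out, 0 with set 1 alone (0.59% of all genes), 6 with set 2 alone and 6 without kidneys 3818 and 3820. In KO kidneys, 3 became 6 with KO arrays alone (11.9% of all genes) and 6 with set 2 alone. Between KO and WT after UUO, 0 became 1, SGK1 each time, with array weights, brighter genes alone, set 2 alone, the 4 groups in 1 model, the unadjusted p alone, and without 3818 and 3820, and was 0 to 1 with 1 kidney left out (1 without 3819). More of all genes were called lower in these settings as well, against 1 of 18132 in the main fit. They numbered 63 with array weights, 123 of the 9066 brighter genes, 56 with set 2 alone and 93 with the 4 groups. There were 867 with the unadjusted p alone, 32 without 3818 and 3820, and 221 without 3819. The reversed values were all of differences that had not passed. For the difference of the responses, SCNN1A was 0.07, SLC4A1 0.06 and SLC26A4 0.03 in set 2, and SCNN1A was 0.15 without 3818 and 3820. Between KO and WT after UUO, in set 2 and without 3818 and 3820 respectively, SLC4A1 was 0.20 and 0.13, SLC26A4 0.09 and 0.06 and SCNN1A 0.14 and 0.22, and SCNN1A was 0.01 with array weights and -0.23 to 0.03 with 1 kidney left out (0.03 without 3820). The cause was not tested. AVPR2 and ATP6V0D2 were not among the 9066 brighter genes. No paired analysis was possible because the array numbers are unique.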

Other observations

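Other segments and cell types of the same kidneys are given by counts of genes at a limma adjusted p of 0.05. Of all genes, 8.22% were lower and 6.97% higher in WT kidneys, and 11.2% lower and 10.6% higher in KO kidneys. Without kidneys 3818 and 3820, 11.6% were lower in WT and 2009 of 18132 higher. Of 15 genes of the thick ascending limb and distal convoluted tubule, 10 were lower in WT and 7 in KO kidneys after UUO. Of 19 proximal tubule genes, 5 were lower in WT and 13 in KO kidneys, and without kidneys 3818 and 3820 the WT count was 12. Of 14 tubule injury genes, 10 were higher in each genotype, and of 13 genes of stroma and endothelium 5 were higher in WT and 6 in KO kidneys. 1 of 7 podocyte genes was lower in each genotype. With kidneys 3818 and 3820 left out, the WT counts were 11 lower for the thick limb and distal tubule, 13 higher for injury, 5 higher for stroma and endothelium and 1 lower for podocytes.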
